A study of Mus musculus with 24 samples.

Results

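Input liver RNA of 8-week-old mice was compared between 3 knockout and 3 wild-type animals across every gene of the authors' deposited table, which lists 25239 genes. The knockout mice are labelled as an ApoF gene knockout and the others as wild type; both groups are C57BL/6 mice sampled at the age of 8 weeks, and no treatment is named for either. The labels name no allele, sex or pooling, and the animal numbers in them differ from library to library, so the 6 input libraries are taken as 6 animals. The series holds 24 libraries in all, input and m6A immunoprecipitated RNA of knockout and wild-type mice at 8 and 28 weeks, and the input libraries of the 8-week mice are described here. Reads counted at the m6A sites of the same input libraries summed to 77744176 in the knockout libraries and 74003375 in the wild-type libraries. Of the genes listed, 18103 had counts in these libraries and 15214 had an adjusted p. The gene families below were chosen outside the usual lists of lipid metabolism.

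Apof encodes apolipoprotein F, a protein that the liver secretes into plasma, where it binds lipoproteins and inhibits the transfer of cholesteryl esters between them. The liver is built mainly of hepatocytes, which make plasma proteins, bile and the enzymes that convert drugs and hormones. Endothelial cells, stellate cells and resident macrophages lie between them, and each adds its own transcripts to RNA from whole tissue. In mouse liver many carriers and enzymes differ between the sexes, because male and female patterns of growth hormone set their transcription.

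Levels are group means of normalized counts, that is, counts divided by DESeq2 size factors, worked out from the mean and the ratio that the authors deposited. All levels below are in this unit. They are not scaled by transcript length, so they compare groups for 1 gene and not genes with each other. A log2 ratio is knockout over wild type with the deposited sign turned, ± is the standard error the authors deposited, and a gene was called where its adjusted p was under 0.05. No value per library was analysed here, so the spread between animals is known only through that standard error. In RNA from whole tissue, fewer cells of a type and less RNA per cell cannot be told apart.

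Apof itself had 14414 normalized counts in knockout livers and 23454 in wild-type livers, for which the authors' deposited table gives a log2 ratio of -0.70 ± 0.11 (adjusted p = 2.3e-08). The knockout livers therefore still held transcript counted under Apof, at 14414 normalized counts. Input reads at the m6A sites listed for Apof, counted in the same libraries, numbered 21634 in the knockout libraries and 36467 in the wild-type libraries. At 28 weeks, in other animals, Apof averaged 11839 normalized counts in knockout livers and 23860 in wild-type livers, a log2 ratio of -1.01 ± 0.16 in the authors' deposited table.

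The groups also differed in sex-linked RNA. Ddx3y, a Y-linked helicase gene, averaged 2338 in knockout livers and under 1 in wild-type livers, and Kdm5d, a Y-linked histone demethylase gene, 935 in knockout livers and under 1 in wild-type livers. Eif2s3y, a Y-linked translation factor gene, averaged 1392 in knockout livers and 2.96 in wild-type livers. Wild-type livers at 8 weeks thus held almost no Y-linked RNA and knockout livers did. Xist, the RNA that silences an X chromosome in females, averaged 10192 in knockout livers and 21017 in wild-type livers and had no p in the table. At 28 weeks Ddx3y averaged 2189 normalized counts in knockout livers and 2232 in wild-type livers, and Xist 8903 in knockout livers and 8747 in wild-type livers. By lists of sex-biased mouse liver genes made from general knowledge, 12 of 32 tested male-biased genes were higher and 0 lower in knockout, while of 45 tested female-biased genes 1 was higher and 17 were lower. Genotype and these sex-linked differences cannot be told apart at 8 weeks, and this holds for every result below.

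RNA of other tissues also differed. The table gives no p for 139 genes with counts, a mark that DESeq2 sets where the count of a gene is extreme in a library; 130 of them had a positive ratio and 9 a negative one. All 24 genes of a skeletal muscle list chosen after their values were seen, from myosin heavy chains to calcium pumps, were among them. Summed over the list, these genes averaged 60956 normalized counts in knockout livers and 175 in wild-type livers, and at 28 weeks 198 in knockout livers and 162 in wild-type livers. Genes of the adrenal gland, chosen in the same way, summed to 3646 in knockout livers and 1457 in wild-type livers, and 8 of the 15 had no p. At 28 weeks the 15 genes summed to 2704 in knockout livers and 3257 in wild-type livers. Of adrenal genes without a p, Cyp21a1 averaged 265 in knockout livers and 2.28 in wild-type livers at 8 weeks. Chgb averaged 319 in knockout livers and 6.95 in wild-type livers. The wild-type sum of the list thus came mostly from other genes, and the sums do not measure adrenal RNA alone. Fos, Fosb, Jun, Btg2 and Gadd45g, which respond to stimuli within minutes, also had no p and summed to 1424 in knockout livers and 10963 in wild-type livers, and at 28 weeks to 1730 in knockout livers and 3566 in wild-type livers. This list, too, was chosen after its values were seen. Their part in the calls below was not tested, and none of these genes is counted among the calls.

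Markers of the cells of the liver were present in both groups. The 18 hepatocyte markers, all with counts, summed to 8762736 normalized counts in knockout livers and 6283804 in wild-type livers, and 3 of them were higher. None of 15 Kupffer cell markers and none of 14 sinusoidal endothelial markers was called. Of 14 tested stellate cell and fibroblast markers 3, the collagen genes Col1a1, Col1a2 and Col3a1, were higher in knockout and 1, Ecm1, was lower. The 3 collagen genes summed to 15325 in knockout livers and 3469 in wild-type livers, and the other 12 markers to 17284 in knockout livers and 18851 in wild-type livers. Of these 12 markers 5 had a positive and 7 a negative log2 ratio. Lymphocyte markers summed to 320 in knockout livers and 605 in wild-type livers, with 2 of 14 lower. Erythroid markers summed to 14852 in knockout livers and 4426 in wild-type livers, with 3 of 8 tested higher, and 10 of 12 markers of the exocrine pancreas were listed at 0.

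**Figure D1:**
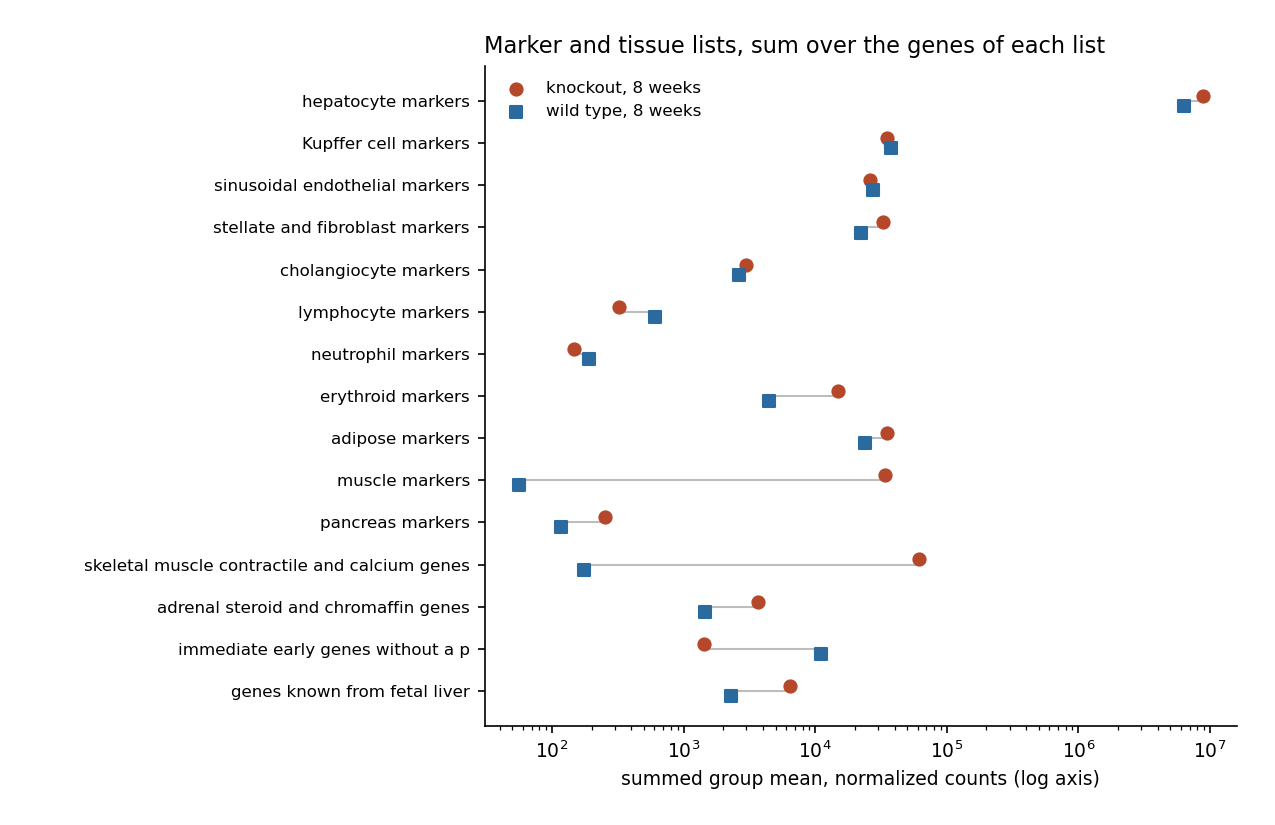
Sum of the group means of normalized counts (log axis) over the genes of each cell type or tissue list at 8 weeks, circles for knockout and squares for wild type, with no error bars because each point is a sum of group means. The muscle lists lie furthest apart, with 60956 in knockout against 175 in wild-type livers for the longer list.

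Of the 15214 genes with an adjusted p, 757 were called, which is 4.98% of them. Called genes higher in knockout numbered 377, or 2.48%, and called genes lower in knockout numbered 380, or 2.50%. Without the genes of the sex-linked and sex-biased lists 723 were called, 360 higher and 363 lower, and the remaining calls come from the same livers, of which the wild-type ones lacked Y-linked RNA. The median log2 ratio of all tested genes was 0.01, and the median size of a called log2 ratio was 1.15. Abundant transcripts were called more often: 12.3% of the 560 genes with a mean of 10000 normalized counts or more, against 1.34% of the 1945 genes under 20. The called changes of abundant genes were smaller, with a median size of 0.74 on the log2 scale in the group of most abundant genes and 6.42 in the group of least abundant genes. Among the calls, 27 genes averaged under 1 normalized count in wild-type livers and 8 averaged under 1 in knockout livers, and no fold is given for these.

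**Figure D2:**
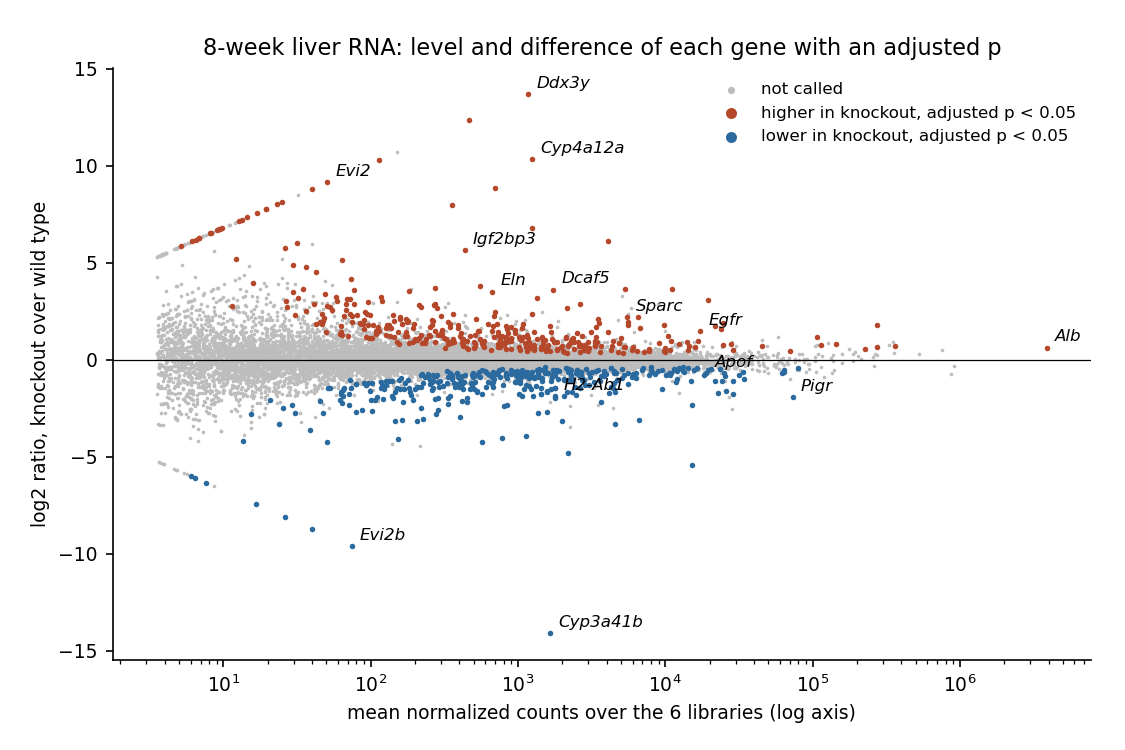
Mean normalized counts over the 6 libraries (log axis) against the log2 ratio of knockout over wild type, 1 point for each of 15214 genes, with the 377 called higher and the 380 called lower in colour. Of the called genes, 60 were at least 8-fold higher and 25 at least 8-fold lower in knockout.

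The smallest adjusted p values among genes higher in knockout belonged to transcripts of several kinds. Igf2bp3, which encodes an RNA-binding protein known from fetal liver, was at 851 normalized counts in knockout livers and 16.7 in wild-type livers (log2 ratio 5.67 ± 0.35 and adjusted p = 4.5e-54 by the authors' deposited table). Eln, the gene for elastin, had 1221 normalized counts in knockout livers and 107 in wild-type livers, for which the authors' deposited table gives a log2 ratio of 3.51 ± 0.41 (adjusted p = 1.4e-14). Lpl, lipoprotein lipase, was at 4672 in knockout livers and 636 in wild-type livers. Fkbp11, a secretory pathway prolyl isomerase gene, was at 1180 in knockout livers and 215 in wild-type livers, Hebp2, a haem-binding protein gene, at 124 in knockout livers and 14.2 in wild-type livers, and Alas2, the erythroid enzyme that starts haem synthesis, at 3729 in knockout livers and 577 in wild-type livers. Amot, for angiomotin, a scaffold that binds the Yap coactivator, was at 1038 normalized counts in knockout livers and 427 in wild-type livers (log2 ratio 1.28 ± 0.17 and adjusted p = 4.7e-11 by the authors' deposited table).

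Among genes lower in knockout, Ugt1a1, the transferase that conjugates bilirubin, had 9460 normalized counts in knockout livers and 20325 in wild-type livers, for which the authors' deposited table gives a log2 ratio of -1.10 ± 0.12 (adjusted p = 4.8e-16). Amotl2, a relative of angiomotin, was at 1725 normalized counts in knockout livers and 4304 in wild-type livers (log2 ratio -1.32 ± 0.18 and adjusted p = 3.8e-10 by the authors' deposited table). The pair thus moved in opposite directions, Amot higher and Amotl2 lower. Mmd, a membrane protein gene first described in macrophages, was at 1769 in knockout livers and 3696 in wild-type livers. Rplp2-ps1, a pseudogene of a ribosomal protein that may share reads with its parent gene, was at 88.1 in knockout livers and 1461 in wild-type livers.

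Some calls were not matched by the input reads at m6A sites, or lay in overlapping genes. Dcaf5, which encodes a substrate receptor of a ubiquitin ligase, had 3182 normalized counts in knockout livers and 259 in wild-type livers, for which the authors' deposited table gives a log2 ratio of 3.62 ± 0.21 (adjusted p = 7.6e-65). Input reads at the m6A sites listed for Dcaf5 in the same libraries numbered 4662 in the knockout libraries and 4255 in the wild-type libraries, so the difference was not seen there. Evi2 averaged 100 in knockout livers and under 1 in wild-type livers while Evi2b averaged under 1 in knockout livers and 148 in wild-type livers. These genes overlap in the RefSeq annotation of GRCm38.p6 on chromosome 11, and reads of a pair of overlapping genes may be assigned to either. Across the 677 called genes that have a listed site, the input reads at sites had the same sign as the turned ratio in 667.

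**Figure D3:**
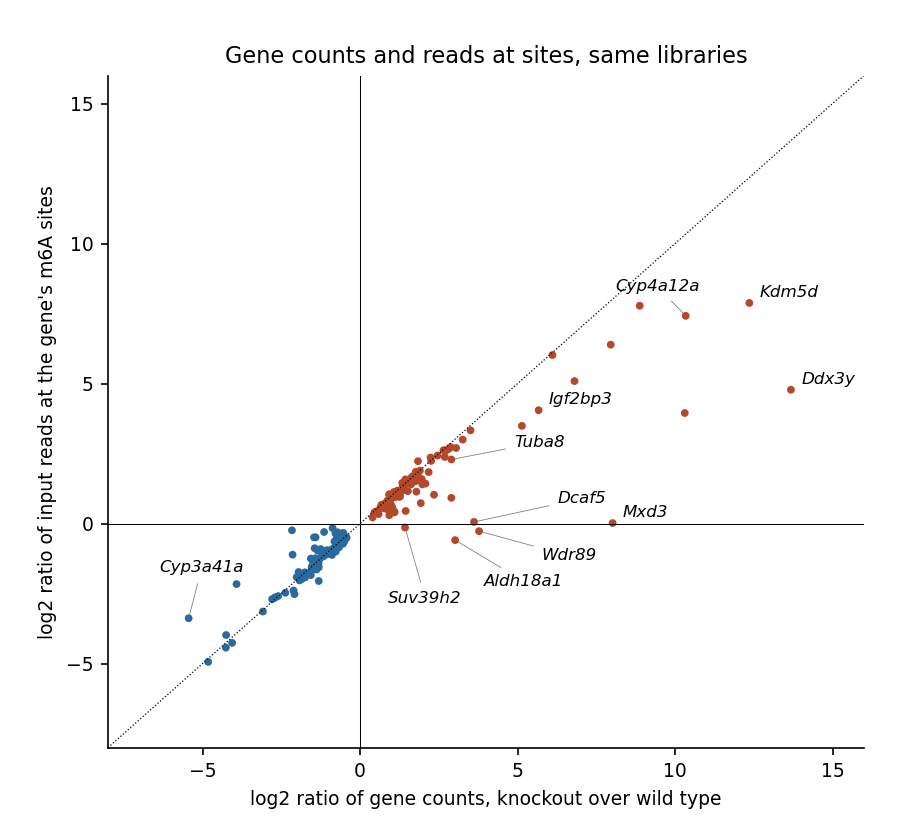
Log2 ratio of gene counts (x) against the log2 ratio of input reads summed over the gene's m6A sites and scaled to the column sums (y), knockout over wild type, for the 199 genes of the naming rule that have a site, red where higher and blue where lower in knockout. The points of 196 genes share their sign on both axes, and Aldh18a1, Suv39h2 and Wdr89 do not. The gene ratios of Ddx3y, Kdm5d, Mxd3 and Akr1c18, which averaged under 1 normalized count in wild-type livers, and of Sult3a2, which did so in knockout livers, depend on the fit and give no fold.

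Of the 757 calls 289 lay in 73 gene families taken by symbol and 468 in none of them. A called member was found in 69 of the families, 15 of them only higher, 13 only lower and 41 in both directions. Families together held 6257 tested genes, and 4.62% of these were called, close to the 4.98% of all genes. The largest shares among families with at least 25 tested members were those of the MHC genes at 23.1%, the secreted proteases at 21.4% and the cytochromes P450 outside the 2c, 2d, 3a and 4 families at 19.4%.

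**Figure D4:**
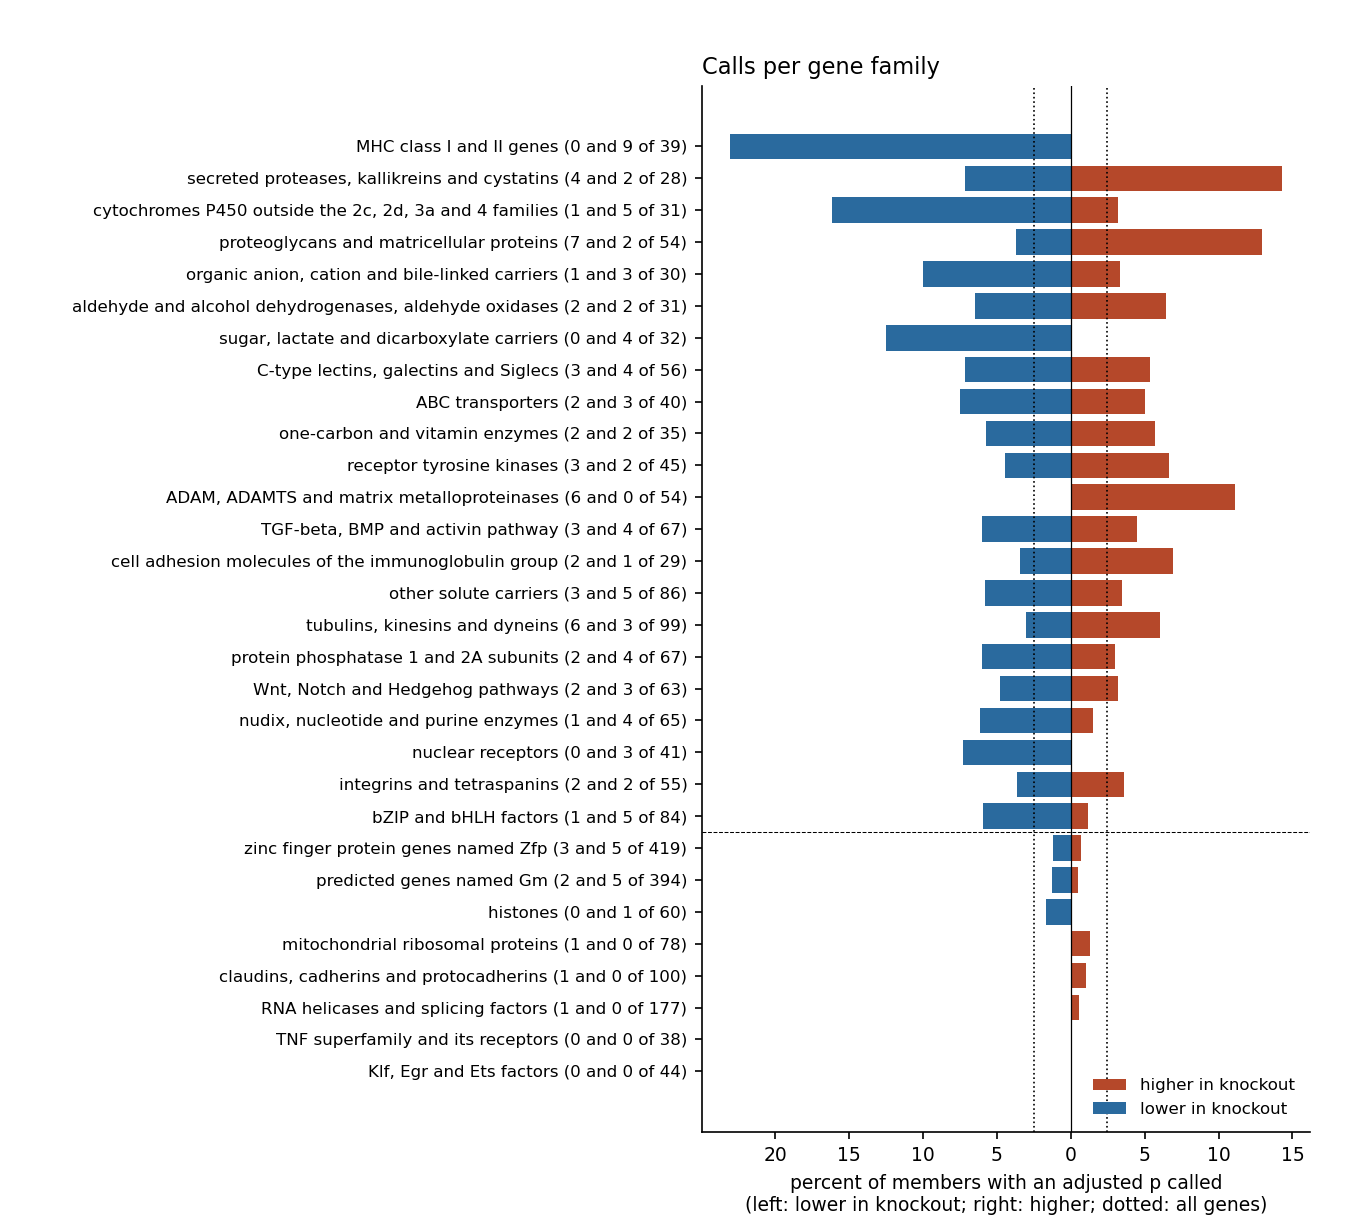
Percent of tested members called per family, to the right where higher and to the left where lower in knockout, for the 22 families with the largest and, under the dashed line, the 8 with the smallest share among those with at least 25 tested members; brackets give the members higher and lower of those tested. Dotted lines mark 2.48% and 2.50%, the shares of all genes called higher and lower.

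MHC molecules present peptides to T cells: class II molecules on antigen-presenting cells, class I on nearly all cells. Of 39 tested MHC genes 9 were lower and 0 higher in knockout, a share of 23.1% beside 2.50% of all genes called lower, and their median log2 ratio was -0.44 beside 0.01. H2-Ab1, a class II beta chain, was at 776 normalized counts in knockout livers and 2815 in wild-type livers (log2 ratio -1.86 ± 0.36 and adjusted p = 3.2e-05 by the authors' deposited table). H2-Eb1, another class II beta chain, had 465 normalized counts in knockout livers and 1676 in wild-type livers, for which the authors' deposited table gives a log2 ratio of -1.85 ± 0.42 (adjusted p = 7.5e-04). H2-Aa, the class II alpha chain, was at 182 in knockout livers and 713 in wild-type livers, and Cd74, the invariant chain that escorts class II molecules, at 1115 in knockout livers and 3533 in wild-type livers. Ciita, the coactivator on which class II transcription depends, was at 48.7 normalized counts in knockout livers and 196 in wild-type livers (log2 ratio -2.01 ± 0.45 and adjusted p = 7.5e-04 by the authors' deposited table). H2-DMb1, which helps to load peptides, was at 62.0 in knockout livers and 172 in wild-type livers. Of class I genes H2-D1 was at 19623 in knockout livers and 27652 in wild-type livers, and H2-Q4, whose close copies among the H2-Q genes may share reads, at 1850 in knockout livers and 2608 in wild-type livers. Class II genes of antigen-presenting cells and class I genes were thus both among the calls, all lower in knockout. Of 14 lymphocyte markers 2, Cd22 and Cd3g, were also called lower, as given above, and their part in these values was not tested.

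The promoters of H2-Aa, H2-Eb1 and H2-DMb1 are shown because these class II genes fell together. Each is the RefSeq window on GRCm38.p6 from 250 bases before to 50 after the start of the gene, written 5′ to 3′ on the strand of the gene, with capitals for the motif TGATTGG on either strand (reverse complement CCAATCA).
H2-Aa, chr17:34287774-34288073, minus strand: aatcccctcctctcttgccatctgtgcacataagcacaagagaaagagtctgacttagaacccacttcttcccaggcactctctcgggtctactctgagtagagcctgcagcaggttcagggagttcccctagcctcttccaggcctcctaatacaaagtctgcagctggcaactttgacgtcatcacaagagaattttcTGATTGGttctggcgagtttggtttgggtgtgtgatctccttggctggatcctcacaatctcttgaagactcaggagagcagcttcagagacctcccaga
H2-Eb1, chr17:34305617-34305916, plus strand: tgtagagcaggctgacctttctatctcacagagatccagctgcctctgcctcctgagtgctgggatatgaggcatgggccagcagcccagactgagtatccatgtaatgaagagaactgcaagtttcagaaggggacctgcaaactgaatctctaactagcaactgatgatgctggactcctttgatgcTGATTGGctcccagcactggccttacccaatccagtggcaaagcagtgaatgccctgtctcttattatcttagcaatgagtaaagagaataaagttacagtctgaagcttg
H2-DMb1, chr17:34152941-34153240, plus strand: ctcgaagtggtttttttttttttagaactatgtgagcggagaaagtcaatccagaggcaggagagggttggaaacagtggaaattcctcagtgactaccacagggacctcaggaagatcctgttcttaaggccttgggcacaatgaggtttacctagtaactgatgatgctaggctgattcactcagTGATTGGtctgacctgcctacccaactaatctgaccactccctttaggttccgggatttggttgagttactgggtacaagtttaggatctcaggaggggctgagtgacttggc
The motif, which holds the inverted CCAAT letters, began at position -50 in H2-Aa, -61 in H2-Eb1 and -63 in H2-DMb1, counted from the gene's start. It was in 7.82% of the 32851 windows of this length in the table. Of the 9 called MHC genes 6 matched a window by symbol, and all 6 held the motif, as did 24 of the 35 MHC genes with a window. The match is a description of letters and does not show that a factor binds there.

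Pigr, the receptor that carries immunoglobulin A across epithelia into bile, had 30607 normalized counts in knockout livers and 115807 in wild-type livers, for which the authors' deposited table gives a log2 ratio of -1.92 ± 0.40 (adjusted p = 1.4e-04). It was 1 of 49 tested Toll-like, Nod-like and Fc receptor genes and the only call among them, 2.04% beside 4.98% of all genes. Il1b, the cytokine interleukin 1 beta, fell to 40.8 in knockout livers and 172 in wild-type livers. It was the only call among 45 interleukin and interleukin receptor genes, 2.22% beside 4.98% of all genes. Gbp2b, an interferon-induced guanylate-binding protein gene, was at 70.3 in knockout livers and 486 in wild-type livers. None of 38 tested genes of the TNF superfamily and its receptors was called, beside 4.98% of all genes. An unadjusted p under 0.05 was held by 6 of them, and by 2532 of all 15214 tested genes. Such small counts are not a result about these families.

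C-type lectins, galectins and Siglecs bind sugars on cells and microbes, and 3 of 56 were higher and 4 lower in knockout, 12.5% beside 4.98% of all genes. Cd209f, a relative of the dendritic lectin DC-SIGN, was at 125 normalized counts in knockout livers and 3.54 in wild-type livers (log2 ratio 5.14 ± 0.76 and adjusted p = 6.4e-09 by the authors' deposited table). Clec2h was at 470 in knockout livers and 67.2 in wild-type livers, and its relative Clec2d moved the other way, at 1185 in knockout livers and 1873 in wild-type livers. Colec12, a scavenger receptor with a collagen-like stem, was at 1731 in knockout livers and 2653 in wild-type livers, and Lgals4, a galectin, at a log2 ratio of -1.01 ± 0.25 (adjusted p = 0.00262) by the authors' deposited table. Of 46 chemokine and chemokine receptor genes 2 were higher and 1 lower, 6.52% beside 4.98% of all genes. Ccl9, a chemokine of myeloid cells, was at 3277 in knockout livers and 2304 in wild-type livers. Ackr3, a scavenging receptor for Cxcl12, was at a log2 ratio of 1.87 ± 0.57 (adjusted p = 0.0241) by the authors' deposited table. Cxcl12 itself was at 8475 in knockout livers and 13367 in wild-type livers.

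Matrix metalloproteinases and ADAM proteases cut matrix and surface proteins, and of 54 tested genes 6 were higher and 0 lower in knockout, 11.1% beside 2.48% of all genes called higher. Adamts12 had 135 normalized counts in knockout livers and 18.2 in wild-type livers, for which the authors' deposited table gives a log2 ratio of 2.90 ± 0.43 (adjusted p = 5.9e-09). Adamts2, which trims the ends of procollagens, was at 801 normalized counts in knockout livers and 291 in wild-type livers (log2 ratio 1.46 ± 0.29 and adjusted p = 8.8e-05 by the authors' deposited table). Adamts9 was at 588 in knockout livers and 191 in wild-type livers, Adamts4, an aggrecanase, at 79.4 in knockout livers and 17.7 in wild-type livers, and Mmp2, which cuts denatured collagen, at 385 in knockout livers and 120 in wild-type livers. Adam32, known from testis, was at 26.6 in knockout livers and under 1 in wild-type livers. The median log2 ratio of all 54 was 0.03, beside 0.01 for all genes.

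Proteoglycans and matricellular proteins organise collagen and tether growth factors. Of 54 tested genes 7 were higher and 2 lower in knockout, 16.7% beside 4.98% of all genes, and their median log2 ratio was 0.49 beside 0.01. Sparc, a collagen-binding glycoprotein, had 9064 normalized counts in knockout livers and 2002 in wild-type livers, for which the authors' deposited table gives a log2 ratio of 2.18 ± 0.35 (adjusted p = 1.2e-07). Smoc2, of the same protein group, was at 1128 in knockout livers and 239 in wild-type livers, and Postn, periostin, was at 1083 normalized counts in knockout livers and 571 in wild-type livers (log2 ratio 0.92 ± 0.20 and adjusted p = 4.6e-04 by the authors' deposited table). Nid1, nidogen, which links laminin to collagen IV, was at 2929 in knockout livers and 1334 in wild-type livers. Gpc3, a glypican known from fetal liver, was at a log2 ratio of 2.20 ± 0.60 (adjusted p = 0.00953) by the authors' deposited table, and Hapln1, which links hyaluronan to proteoglycans, at 57.2 in knockout livers and 1.94 in wild-type livers. The genes that fell were Ecm1, at 2509 in knockout livers and 3827 in wild-type livers, and Ccn1, a matricellular gene induced by growth factors and Yap, at 237 in knockout livers and 589 in wild-type livers. Of the stellate cell and fibroblast markers given above, the collagen genes summed higher in knockout livers. The other 12 markers summed lower, though 5 of them had a positive and 7 a negative log2 ratio. The part of all these markers in the values of this family was not tested.

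Chaperones and cutters of the secretory pathway included Serpinh1, the collagen chaperone Hsp47, which had 1381 normalized counts in knockout livers and 536 in wild-type livers, for which the authors' deposited table gives a log2 ratio of 1.37 ± 0.39 (adjusted p = 0.0132). Pdia6, a disulfide isomerase of the endoplasmic reticulum, was at 18111 in knockout livers and 10991 in wild-type livers. P4ha2, which hydroxylates prolines of collagen, moved the other way, at 165 in knockout livers and 358 in wild-type livers. Serpinb1a, an inhibitor of neutrophil proteases, was at 81.2 normalized counts in knockout livers and 492 in wild-type livers (log2 ratio -2.60 ± 0.48 and adjusted p = 9.0e-06 by the authors' deposited table). Of 28 secreted proteases, kallikreins and their inhibitors 4 were higher and 2 lower, 21.4% beside 4.98% of all genes. Wfdc21, a small secreted protein with a whey acidic protein fold, had 3252 normalized counts in knockout livers and 7835 in wild-type livers, for which the authors' deposited table gives a log2 ratio of -1.27 ± 0.18 (adjusted p = 1.0e-09), and Wfdc2 was at 59.8 in knockout livers and 219 in wild-type livers. Among the 4 higher were Prss23, at 445 in knockout livers and 233 in wild-type livers, Klk1b4, a kallikrein whose close copies may share reads, at 165 in knockout livers and 57.5 in wild-type livers, and Prss8, prostasin, at 223 in knockout livers and 83.6 in wild-type livers.

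Tubulins, kinesins and dyneins form and walk on microtubules. Of 99 tested genes 6 were higher and 3 lower in knockout, a share of 9.09% beside 4.98% of all genes, and their median log2 ratio was 0.24. An unadjusted p under 0.05 was held by 32 of them, and by 2532 of all 15214 tested genes. Stmn1, which destabilises microtubules, was at 1233 in knockout livers and 482 in wild-type livers, and Tubb6, a beta tubulin, at 1103 in knockout livers and 463 in wild-type livers. Tuba8, an alpha tubulin, was at 480 normalized counts in knockout livers and 64.1 in wild-type livers (log2 ratio 2.90 ± 0.72 and adjusted p = 0.00305 by the authors' deposited table). Kif20a, a kinesin of dividing cells, was at 161 in knockout livers and 46.5 in wild-type livers, and Kif11, which pushes the poles of the mitotic spindle apart, at 207 in knockout livers and 59.9 in wild-type livers. The 3 that fell were Kif28, at under 1 in knockout livers and 52.2 in wild-type livers, Kif3c, a neuronal kinesin, at 96.5 in knockout livers and 266 in wild-type livers, and Mapre2, which binds microtubule ends, at 740 in knockout livers and 1352 in wild-type livers. In other parts of the skeleton, Krt8, the keratin of hepatocytes, had 15724 normalized counts in knockout livers and 9046 in wild-type livers, for which the authors' deposited table gives a log2 ratio of 0.80 ± 0.19 (adjusted p = 0.00171), and Myh10, a non-muscle myosin, was at 3388 normalized counts in knockout livers and 1993 in wild-type livers (log2 ratio 0.77 ± 0.17 and adjusted p = 6.6e-04 by the authors' deposited table). Of 100 claudins, cadherins and protocadherins only Cldn2, a pore-forming claudin, was called, 1.00% beside 4.98% of all genes. Cldn2 was at 6273 in knockout livers and 3426 in wild-type livers.

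Adhesion receptors moved both ways. Cd63, a tetraspanin of endosomes, had 603 normalized counts in knockout livers and 177 in wild-type livers, for which the authors' deposited table gives a log2 ratio of 1.77 ± 0.40 (adjusted p = 7.5e-04), and Mcam, of the vessel wall, was at 565 in knockout livers and 267 in wild-type livers. Itga4, an integrin of leukocytes, was at 259 normalized counts in knockout livers and 557 in wild-type livers (log2 ratio -1.10 ± 0.25 and adjusted p = 9.2e-04 by the authors' deposited table), and Cadm1, an adhesion molecule of epithelia, had 1001 normalized counts in knockout livers and 1913 in wild-type livers, for which the authors' deposited table gives a log2 ratio of -0.93 ± 0.19 (adjusted p = 1.4e-04). Itgb7, which pairs with Itga4 on lymphocytes, was at 47.0 in knockout livers and 113 in wild-type livers.

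Among receptor tyrosine kinases 3 of 45 were higher and 2 lower, 11.1% beside 4.98% of all genes. Egfr, the receptor of epidermal growth factor, which is abundant in hepatocytes, was at 25403 normalized counts in knockout livers and 9142 in wild-type livers (log2 ratio 1.47 ± 0.34 and adjusted p = 0.00126 by the authors' deposited table). Ptk7, a pseudokinase of planar cell polarity, was at 119 in knockout livers and 30.6 in wild-type livers, and Ntrk3, a neurotrophin receptor, at 28.7 in knockout livers and under 1 in wild-type livers. Mertk, by which macrophages clear dying cells, was at 1425 in knockout livers and 2089 in wild-type livers, and Ephb6, an ephrin receptor, at 28.3 in knockout livers and 102 in wild-type livers. Of their ligands, Pdgfa rose to 428 in knockout livers and 175 in wild-type livers, and Fgf1 fell to 4187 in knockout livers and 7769 in wild-type livers. Nrp2, a coreceptor of semaphorins and vascular growth factors, had 888 normalized counts in knockout livers and 3198 in wild-type livers, for which the authors' deposited table gives a log2 ratio of -1.85 ± 0.25 (adjusted p = 6.0e-11). It was the only call among 43 genes of semaphorins, plexins, netrins and slits, 2.33% beside 4.98% of all genes.

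The TGF-beta, BMP and activin pathway joins ligands, type I and II receptors, Smad proteins that carry the signal to the nucleus, and inhibitors of each step. Of 67 tested genes 3 were higher and 4 lower in knockout, 10.4% beside 4.98% of all genes. Among ligands, Inhba, the activin A subunit, was at 3620 normalized counts in knockout livers and 1396 in wild-type livers (log2 ratio 1.37 ± 0.39 and adjusted p = 0.0122 by the authors' deposited table), and Bmp6, by which the liver senses iron, had 114 normalized counts in knockout livers and 303 in wild-type livers, for which the authors' deposited table gives a log2 ratio of -1.41 ± 0.35 (adjusted p = 0.00257). Of secreted proteins, Fstl1, a follistatin-like protein, was at 1258 normalized counts in knockout livers and 424 in wild-type livers (log2 ratio 1.57 ± 0.27 and adjusted p = 8.2e-07 by the authors' deposited table). Of receptors, Acvr2b, a type II activin receptor, had 281 normalized counts in knockout livers and 700 in wild-type livers, for which the authors' deposited table gives a log2 ratio of -1.31 ± 0.32 (adjusted p = 0.00189). The inhibitory Smads both fell: Smad7 was at 452 normalized counts in knockout livers and 1126 in wild-type livers (log2 ratio -1.32 ± 0.31 and adjusted p = 0.00155 by the authors' deposited table), and Smad6 was at 194 in knockout livers and 349 in wild-type livers. The median log2 ratio of the 67 genes was -0.01, beside 0.01 for all genes.

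In the Wnt, Notch and Hedgehog pathways 2 of 63 tested genes were higher and 3 lower, 7.94% beside 4.98% of all genes. Fzd8, a Wnt receptor, had 206 normalized counts in knockout livers and 536 in wild-type livers, for which the authors' deposited table gives a log2 ratio of -1.38 ± 0.23 (adjusted p = 5.7e-07), and Fzd7, its relative, was at 931 in knockout livers and 1490 in wild-type livers. Smo, the signal transducer of Hedgehog, was at 660 in knockout livers and 280 in wild-type livers. The Notch receptors split, with Notch1 at 874 in knockout livers and 1269 in wild-type livers and Notch3, known from vascular smooth muscle, at 200 in knockout livers and 105 in wild-type livers.

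G protein-coupled receptors were called in 8 of 121 tested genes, 2 higher and 6 lower, a share of 6.61% that is near the 4.98% of all genes. S1pr5, a receptor for sphingosine 1-phosphate, was at 109 normalized counts in knockout livers and 440 in wild-type livers (log2 ratio -2.01 ± 0.36 and adjusted p = 3.8e-06 by the authors' deposited table). Adra1a, an adrenaline receptor, was at 67.6 in knockout livers and 172 in wild-type livers, P2ry1, a nucleotide receptor, at 178 in knockout livers and 398 in wild-type livers, and Vipr1, the receptor of vasoactive intestinal peptide, at 2690 in knockout livers and 4077 in wild-type livers. F2r, a thrombin receptor, rose to 1407 in knockout livers and 643 in wild-type livers. Rgs1, which ends G protein signals in leukocytes, had 34.2 normalized counts in knockout livers and 290 in wild-type livers, for which the authors' deposited table gives a log2 ratio of -3.08 ± 0.63 (adjusted p = 1.2e-04). Of 75 MAP kinases and dual-specificity phosphatases with their relatives 0 were higher and 4 lower, a share of 5.33%. Dusp1, a phosphatase that switches off MAP kinases and is induced by stress, was at 358 normalized counts in knockout livers and 2356 in wild-type livers (log2 ratio -2.72 ± 0.49 and adjusted p = 7.0e-06 by the authors' deposited table), and Spry4, an inhibitor of the same cascade, was at 334 in knockout livers and 873 in wild-type livers.

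Of 67 subunits of protein phosphatases 1 and 2A, 2 were higher and 4 lower, 8.96% beside 4.98% of all genes. Ppp1r3g, which directs the phosphatase to glycogen and is in the female-biased list, had 17.3 normalized counts in knockout livers and 288 in wild-type livers, for which the authors' deposited table gives a log2 ratio of -4.06 ± 0.66 (adjusted p = 2.0e-07). Ppp1r3e, another glycogen-targeting subunit, was at 138 in knockout livers and 317 in wild-type livers, and Ppp1r15a, which helps to end the stress response of translation, at 1389 in knockout livers and 2204 in wild-type livers. Ppp1r9a, neurabin, which binds actin, was at 1069 normalized counts in knockout livers and 393 in wild-type livers (log2 ratio 1.44 ± 0.26 and adjusted p = 5.9e-06 by the authors' deposited table). Small GTPases and their regulators, a family of 264 tested genes, had 3 higher and 9 lower, 4.55% beside 4.98% of all genes. Rnd1, which loosens the actin skeleton, had 158 normalized counts in knockout livers and 681 in wild-type livers, for which the authors' deposited table gives a log2 ratio of -2.11 ± 0.31 (adjusted p = 4.9e-09). Rassf3 rose to 4514 in knockout livers and 2386 in wild-type livers, and Rassf5, a relative known from lymphocytes, fell to 364 in knockout livers and 618 in wild-type livers.

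Nuclear receptors were called in 3 of 41 tested genes, all lower in knockout, 7.32% beside 2.50% of all genes called lower. Nr1i3, the constitutive androstane receptor, which induces drug-metabolising genes, was at 2332 normalized counts in knockout livers and 6495 in wild-type livers (log2 ratio -1.48 ± 0.25 and adjusted p = 9.3e-07 by the authors' deposited table). At 8 weeks the wild-type livers, where these genes were higher, also lacked Y-linked RNA. Nr4a1, induced early by stimuli, was at 41.0 in knockout livers and 369 in wild-type livers. Cyp2b10, a known target of Nr1i3 in mouse liver and a member of the female-biased list, was at 133 in knockout livers and 391 in wild-type livers. Other called P450 genes moved both ways, with log2 ratios of -1.72 for Cyp2c37, 2.36 for Cyp2c55 and 1.15 for Cyp3a11. The activity of Nr1i3 was not tested.

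The inhibitors of differentiation, Id1, Id2 and Id3, which block bHLH factors, were all called lower. Id3 had 604 normalized counts in knockout livers and 1348 in wild-type livers, for which the authors' deposited table gives a log2 ratio of -1.16 ± 0.22 (adjusted p = 1.5e-05). Id1 was at 115 in knockout livers and 299 in wild-type livers, and Id2 at 1304 in knockout livers and 2157 in wild-type livers. They were 3 of the 5 genes that fell among 84 tested bZIP and bHLH factors, and 1 rose. The called share of this family was 7.14%, beside 4.98% of all genes. The gene that rose, Mxd3, was at 45.9 in knockout livers and under 1 in wild-type livers, while its input reads at sites numbered 570 in the knockout libraries and 536 in the wild-type libraries. The 3 members of the Zfp36 group, whose proteins bind AU-rich elements and speed the decay of messenger RNA, were also called lower. Zfp36l2 was at 761 normalized counts in knockout livers and 2123 in wild-type livers (log2 ratio -1.48 ± 0.20 and adjusted p = 7.9e-11 by the authors' deposited table). Zfp36l1 had 1622 normalized counts in knockout livers and 4064 in wild-type livers, for which the authors' deposited table gives a log2 ratio of -1.32 ± 0.20 (adjusted p = 2.1e-08), and Zfp36 was at 1342 in knockout livers and 3567 in wild-type livers. Among all 419 tested genes named Zfp, by contrast, 3 were higher and 5 lower, 1.91% of them.

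Of 101 forkhead, Sox, Gata and homeobox factors 1 was higher and 2 were lower, 2.97% beside 4.98% of all genes, and all 3 were homeobox genes. Irx1, of the Iroquois group, was at 5.05 normalized counts in knockout livers and 96.4 in wild-type livers (log2 ratio -4.26 ± 0.83 and adjusted p = 4.1e-05 by the authors' deposited table), and Irx3 was at 7.91 in knockout livers and 53.4 in wild-type livers. Meis1, known from blood stem cells, rose to 278 in knockout livers and 136 in wild-type livers. Of 44 Klf, Egr and Ets factors none was called, beside 4.98% of all genes. An unadjusted p under 0.05 was held by 4 of them, and by 2532 of all 15214 tested genes. Among 159 chromatin enzymes and remodellers 4 were higher and 3 lower, a share of 4.40% that is near the 4.98% of all genes. Dnmt3a, which methylates DNA anew, had 2831 normalized counts in knockout livers and 1603 in wild-type livers, for which the authors' deposited table gives a log2 ratio of 0.82 ± 0.25 (adjusted p = 0.0235), and Kmt5a, which methylates histone H4, was at 3477 in knockout livers and 2514 in wild-type livers. Cbx7, of the Polycomb group, was at 260 normalized counts in knockout livers and 751 in wild-type livers (log2 ratio -1.53 ± 0.30 and adjusted p = 5.1e-05 by the authors' deposited table). Suv39h2, a histone H3 methyltransferase, was at 72.2 in knockout livers and 26.7 in wild-type livers, but its input reads at sites had a log2 ratio of -0.14.

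Carriers of organic ions were called in 4 of 30 tested genes, 13.3% beside 4.98% of all genes. Slc10a1, the main uptake carrier for bile salts, had 18303 normalized counts in knockout livers and 9614 in wild-type livers, for which the authors' deposited table gives a log2 ratio of 0.93 ± 0.15 (adjusted p = 3.3e-07). Input reads at the m6A sites of Slc10a1 had a smaller log2 ratio of 0.30. The 3 that fell were Slc22a carriers. Slc22a26 of the female-biased list was at 423 normalized counts in knockout livers and 2733 in wild-type livers (log2 ratio -2.69 ± 0.45 and adjusted p = 5.7e-07 by the authors' deposited table), and Slc22a5, the carnitine carrier, had 262 normalized counts in knockout livers and 786 in wild-type livers, for which the authors' deposited table gives a log2 ratio of -1.59 ± 0.29 (adjusted p = 1.1e-05). Slc22a4 was at 81.6 in knockout livers and 172 in wild-type livers. Of 32 carriers of sugars, lactate and dicarboxylates 0 were higher and 4 lower, 12.5%. Of these, Slc16a12, a creatine carrier, was at 1485 normalized counts in knockout livers and 3065 in wild-type livers (log2 ratio -1.05 ± 0.23 and adjusted p = 6.2e-04 by the authors' deposited table), Slc16a10, a carrier of aromatic amino acids, was at 1518 in knockout livers and 3121 in wild-type livers, Slc16a7, which carries lactate, at 1929 in knockout livers and 3433 in wild-type livers, and Slc5a1, the sodium-coupled glucose carrier, at 53.2 in knockout livers and 131 in wild-type livers.

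Of the 38 tested genes taken by symbol as amino acid carriers 1 was called, 2.63% beside 4.98% of all genes. It was Slc1a4, a carrier of small neutral amino acids, at 525 in knockout livers and 165 in wild-type livers. Slc16a10, given above, also carries amino acids and was counted with the sugar, lactate and dicarboxylate carriers. The zinc carrier Slc39a4 rose to 1887 in knockout livers and 1070 in wild-type livers, and the magnesium carrier Slc41a2 rose to 1138 in knockout livers and 310 in wild-type livers. Of the mitochondrial carriers 3 of 47 fell and 0 rose, 6.38% beside 2.50% of all genes called lower. Among them was Slc25a20, which exchanges acylcarnitines, at 2432 in knockout livers and 3404 in wild-type livers. Of chloride carriers that fell, Slc12a7 was at 4289 in knockout livers and 5938 in wild-type livers. Slc4a1, the anion exchanger of red cells, rose to 105 in knockout livers and 12.6 in wild-type livers, beside the erythroid markers given above.

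ABC transporters were called in 5 of 40 tested genes, 12.5% beside 4.98% of all genes. Abcb4, which moves phosphatidylcholine into bile, had 12853 normalized counts in knockout livers and 18275 in wild-type livers, for which the authors' deposited table gives a log2 ratio of -0.51 ± 0.11 (adjusted p = 5.1e-04). Abcc3, which exports conjugates to blood, was at 7447 normalized counts in knockout livers and 12725 in wild-type livers (log2 ratio -0.77 ± 0.22 and adjusted p = 0.0139 by the authors' deposited table), and Abcb1a, a drug exporter, had 462 normalized counts in knockout livers and 1554 in wild-type livers, for which the authors' deposited table gives a log2 ratio of -1.75 ± 0.43 (adjusted p = 0.00275). Abca1, which loads lipid onto apolipoprotein A-I, rose to 11333 in knockout livers and 8239 in wild-type livers, and Abca8b rose to 6793 in knockout livers and 3167 in wild-type livers. Aqp8, the water channel of the canaliculus, was at 5857 normalized counts in knockout livers and 3004 in wild-type livers (log2 ratio 0.96 ± 0.22 and adjusted p = 7.5e-04 by the authors' deposited table). Among 114 ion channel genes 3 were higher and 4 lower, a share of 6.14%. Ano10, of the anoctamin group, was at 575 in knockout livers and 272 in wild-type livers, Gria3, a glutamate receptor subunit, at 214 in knockout livers and 22.3 in wild-type livers, and Itpr3, a calcium release channel, at 257 in knockout livers and 452 in wild-type livers.

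Cytochromes P450 outside the 2c, 2d, 3a and 4 families were lower in 5 and higher in 1 of 31 tested genes, 19.4% beside 4.98% of all genes. Cyp26a1, which clears retinoic acid, had 261 normalized counts in knockout livers and 1346 in wild-type livers, for which the authors' deposited table gives a log2 ratio of -2.37 ± 0.56 (adjusted p = 0.00146). Cyp2a5, which oxidises coumarin and may share reads with its close copy Cyp2a4, was at 13180 normalized counts in knockout livers and 44890 in wild-type livers (log2 ratio -1.77 ± 0.45 and adjusted p = 0.00474 by the authors' deposited table). Cyp27a1, the sterol 27-hydroxylase, was at 9492 in knockout livers and 13839 in wild-type livers, and Cyp46a1, the cholesterol 24-hydroxylase, at a log2 ratio of -2.57 ± 0.74 (adjusted p = 0.0149) by the authors' deposited table. Cyp2u1 of the male-biased list had 497 normalized counts in knockout livers and 104 in wild-type livers, for which the authors' deposited table gives a log2 ratio of 2.26 ± 0.37 (adjusted p = 3.7e-07). Flavin monooxygenases fell in 2 of 5 tested genes, and Fmo1, which oxidises drugs, was at 7978 normalized counts in knockout livers and 13704 in wild-type livers (log2 ratio -0.78 ± 0.15 and adjusted p = 3.2e-05 by the authors' deposited table). Of the 6 called P450 genes 2 were in the lists of sex-biased genes.

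Among folate enzymes, Mthfd2, of mitochondria, was at 155 in knockout livers and 28.0 in wild-type livers, and Shmt1, of the cytosol, at 6524 in knockout livers and 9553 in wild-type livers. Ahcy, which clears S-adenosylhomocysteine, was at 22609 in knockout livers and 45655 in wild-type livers. Pyrimidines are broken down by Dpyd and then by Dpys, and both fell: Dpyd was at 19289 in knockout livers and 30689 in wild-type livers, and Dpys at 13274 in knockout livers and 23260 in wild-type livers. Nudt7, a peroxisomal enzyme that cleaves coenzyme A and is in the male-biased list, had 10125 normalized counts in knockout livers and 3303 in wild-type livers, for which the authors' deposited table gives a log2 ratio of 1.62 ± 0.34 (adjusted p = 2.6e-04). Aldh3a2, the dehydrogenase of fatty aldehydes, was at 4891 normalized counts in knockout livers and 14108 in wild-type livers (log2 ratio -1.53 ± 0.23 and adjusted p = 1.4e-08 by the authors' deposited table). Aldh18a1, which starts proline synthesis from glutamate, was at 214 in knockout livers and 26.3 in wild-type livers, but its input reads at sites had a log2 ratio of -0.59. Tpmt, the methyltransferase of thiopurines, rose to 1832 in knockout livers and 870 in wild-type livers. Car14, a membrane-bound carbonic anhydrase, had 2927 normalized counts in knockout livers and 1281 in wild-type livers, for which the authors' deposited table gives a log2 ratio of 1.19 ± 0.27 (adjusted p = 7.5e-04). Txnip, which binds thioredoxin and responds to glucose, was at 1964 normalized counts in knockout livers and 6331 in wild-type livers (log2 ratio -1.69 ± 0.31 and adjusted p = 9.8e-06 by the authors' deposited table).

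Families that serve every cell had fewer calls per tested gene than the 4.98% of all genes. Of 177 RNA helicases and splicing factors 1 was called, a share of 0.565% with a median log2 ratio of 0.09. Of 78 mitochondrial ribosomal proteins 1 was called (1.28%), of 39 aminoacyl-tRNA synthetases 1 (2.56%), and of 60 histone genes 1 (1.67%). Few calls do not show that these families were unchanged. The median log2 ratio was 0.21 for the synthetases, with 33 positive and 6 negative, beside 0.01 for all genes. It was 0.11 for the mitochondrial ribosomal proteins, with 59 positive and 19 negative, and -0.03 for the histones, with 29 positive and 31 negative. Of 154 proteasome and ubiquitin-conjugating genes 4 were higher and 0 lower, 2.60% beside 2.48% of all genes called higher. Among the 4 was Usp18, which removes Isg15 from proteins, at 1152 in knockout livers and 588 in wild-type livers. Of 217 F-box, Kelch and Rnf ubiquitin ligases 2 were higher and 4 lower, a share of 2.76%. Among the 4 lower was Fbxo32, an F-box protein known from wasting muscle, at 118 in knockout livers and 318 in wild-type livers. The cap-binding relatives Eif4e2 and Eif4e3 moved in opposite directions, Eif4e2 at 4998 in knockout livers and 3557 in wild-type livers and Eif4e3 at 190 in knockout livers and 402 in wild-type livers.

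Of genes without an established name, 7 of 394 predicted genes named Gm, or 1.78%, and 13 of 594 Riken genes, or 2.19%, were called, beside 4.98% of all genes. Among them 4930452B06Rik had 486 normalized counts in knockout livers and 77.5 in wild-type livers, for which the authors' deposited table gives a log2 ratio of 2.65 ± 0.40 (adjusted p = 1.1e-08), and Gm19619 was at 381 normalized counts in knockout livers and 57.7 in wild-type livers (log2 ratio 2.72 ± 0.40 and adjusted p = 5.6e-09 by the authors' deposited table). D130020L05Rik was at 164 in knockout livers and 734 in wild-type livers, a log2 ratio of -2.16, but its input reads at sites had a log2 ratio of -0.24. Of 596 genes named Fam, Tmem, Ccdc and the like 14 were higher and 4 lower, or 3.02%. Fam81a had 538 normalized counts in knockout livers and 151 in wild-type livers, for which the authors' deposited table gives a log2 ratio of 1.83 ± 0.27 (adjusted p = 9.4e-09). Wdr89, of the same group, was at 1034 in knockout livers and 75.2 in wild-type livers, but its input reads at sites had a log2 ratio of -0.27.

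The 28-week comparison used other animals, 3 knockout and 3 wild type, and both of its groups held Y-linked RNA. Both also held Xist RNA, at 8903 normalized counts in knockout livers and 8747 in wild-type livers. Of its 14391 genes with an adjusted p, 37 were called, or 0.257%. The 2 ages shared 7 called genes, of which 3 had the same sign at both. Besides Apof, these were Apon, an apolipoprotein gene, and Csnk1e, a kinase of the circadian clock. Csnk1e was at 160 in knockout livers and 425 in wild-type livers at 8 weeks. The difference between the ages was tested gene by gene over 14278 genes by a Wald test on the difference of the deposited ratios, and called in 225, or 1.58%. A positive difference means a higher ratio at 8 weeks. Since the 8-week wild-type livers alone lacked Y-linked RNA, sex-linked differences and age cannot be told apart in this test. Of the 712 genes called at 8 weeks and tested at both ages, 172 differed between the ages. These 712 genes were chosen by their 8-week ratio, which is part of the difference tested. Their share therefore cannot be set against the 1.58% of all genes.

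Matrix genes differed between the ages in 4 of 47 ADAM and metalloproteinase genes and 3 of 50 proteoglycan and matricellular genes, and of the TGF-beta, BMP and activin pathway 3 of 62 did. Over all genes tested at both ages the share was 1.58%. These families are given after their 8-week calls, and the 8-week ratio is part of the difference. The small counts are therefore not a result about the families. Sparc had a log2 ratio of -0.52 ± 0.41 at 28 weeks in the authors' deposited table, and the 8-week ratio exceeded it by 2.69 ± 0.53 (adjusted p = 2.2e-04). Eln averaged 115 normalized counts in knockout livers and 195 in wild-type livers at 28 weeks, a difference between the ages of 4.27 ± 0.55 (adjusted p = 4.1e-11) by the Wald test. Irx1, lower in knockout at 8 weeks, averaged 296 normalized counts in knockout livers and 76.1 in wild-type livers at 28 weeks, where it was called higher, and the difference was -6.21 ± 0.89 (adjusted p = 7.6e-09). Pigr averaged 104796 normalized counts in knockout livers and 94020 in wild-type livers, with a difference of -2.08 ± 0.42 (adjusted p = 3.5e-04).

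Of 38 MHC genes 0 were called by the Wald test of the difference, and H2-Ab1 had a log2 ratio of -0.76 ± 0.25 at 28 weeks and a difference of -1.10 ± 0.44 (adjusted p = 0.225). An adjusted p above the threshold does not show the ratios of both ages to be alike. Zfp36l2 had a difference of -1.11 ± 0.32 (adjusted p = 0.0371) and Zfp36l1 of -0.79 ± 0.27 (adjusted p = 0.116). Igf2bp3 averaged 23.1 normalized counts in knockout livers and 18.1 in wild-type livers at 28 weeks, with a difference of 5.32 ± 0.70 (adjusted p = 9.6e-11). Of the 204 genes of the naming rule tested at both ages, 203 had a ratio nearer to 0 at 28 weeks, which is read beside the fact that the rule chose them by their 8-week calls.

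**Figure D5:**
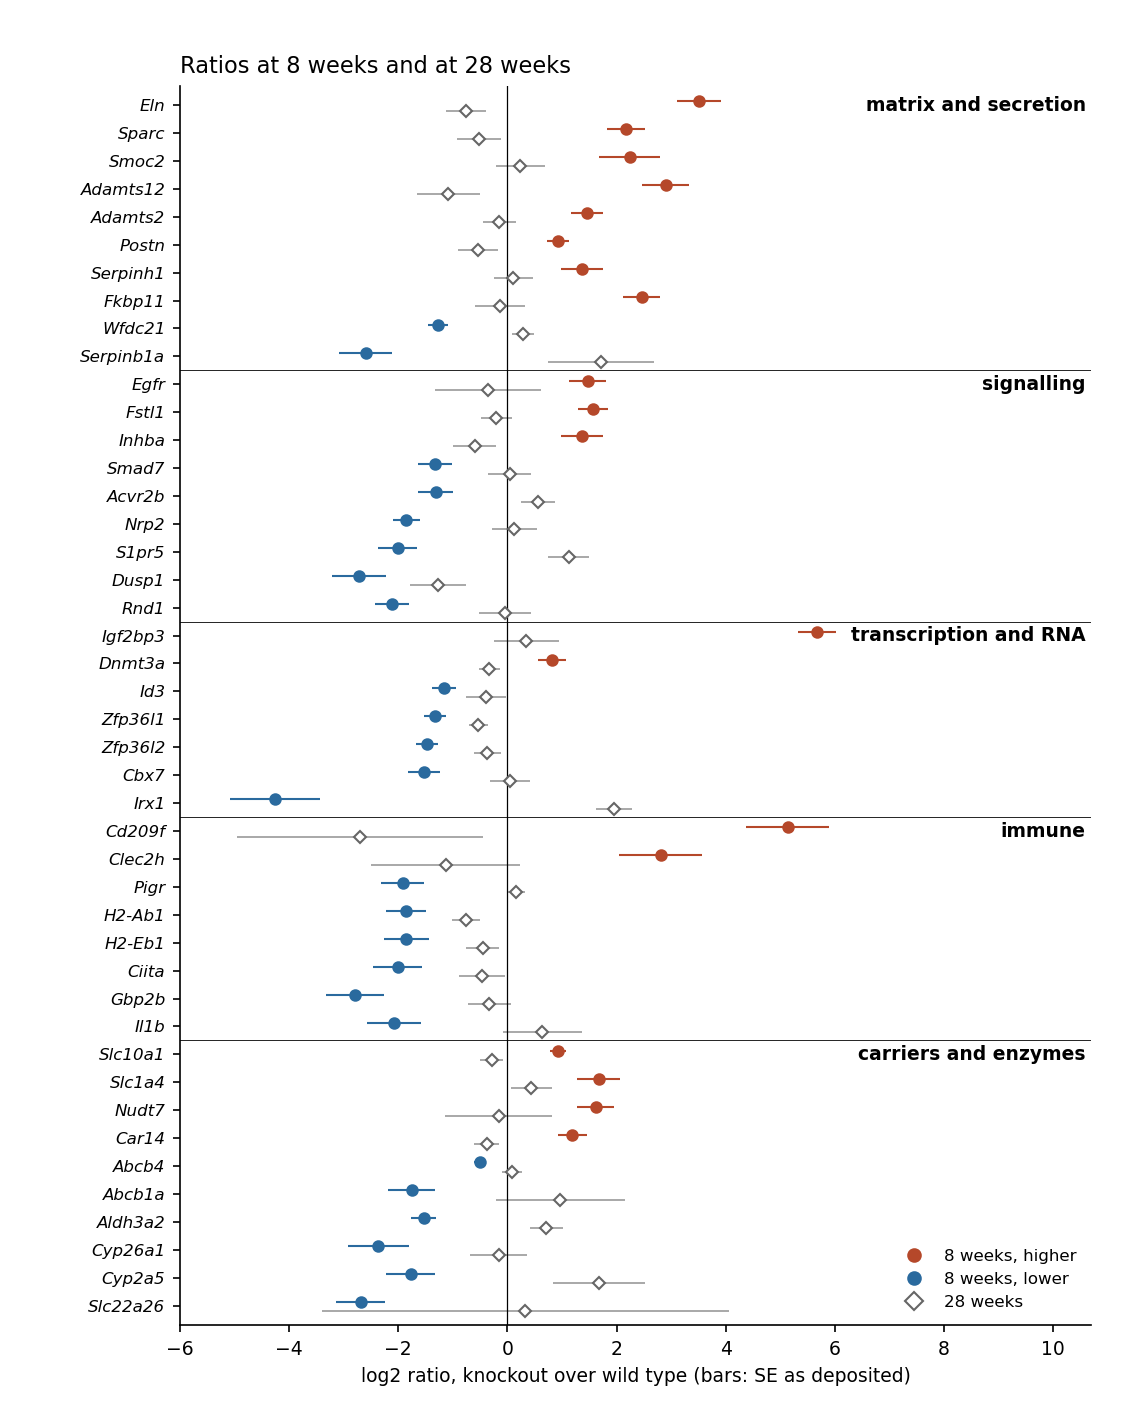
Log2 ratio of knockout over wild type with the deposited standard error for genes described here, grouped by role, filled circles at 8 weeks (red higher, blue lower in knockout) and open diamonds at 28 weeks. Irx1 is at -4.26 at 8 weeks and 1.96 at 28 weeks, and Igf2bp3 at 5.67 and 0.35.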

How the data were processed

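Input RNA of 3 knockout and 3 wild-type livers at 8 weeks was read from deposited tables, with the 28-week tables beside it. HISAT2, StringTie and DESeq are named in the submitters' processing notes, without versions; for the RNA tables, the genome build and the annotation are each not given in the sources used here. Libraries were strand-specific and carried molecular identifiers, per the labels' protocols. The signal values are means of normalized counts over 6 libraries, deposited by the authors from DESeq2 size factors. The log2 values are the authors' deposited ratios and standard errors, positive for wild type and turned here. The score is the Wald statistic the authors deposited. The p-values and adjusted p-values are those the authors deposited, adjusted by Benjamini-Hochberg after a filter on low means. The count values are reads at m6A sites that the authors deposited as sums over a group, so they have no error.

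The direction was taken from these site counts. Group means were computed from mean and ratio. A gene was called at an adjusted p under 0.05. The ages were compared with a 2-sided Wald test on the difference of the ratios (standard errors added in squares), Benjamini-Hochberg adjusted over genes tested at both ages and tested on simulated data. Gene families were taken by symbol pattern, and patterns were corrected after values were seen. Genes were named by this rule: Apof; per family with a call, the called gene with the smallest adjusted p in each direction, or up to 3 with at least 5 calls, at 20 or more normalized counts in the higher group; and over all genes the 12 highest and lowest ratios at 50 or more normalized counts and the 10 smallest adjusted p in each direction. It gave 222 genes, some of which are not reported here; others named in the text were chosen after their values were seen. The members and lists were chosen with earlier results of these data known. No file column of per-library RNA values was analysed, so planned fits with edgeR, TMM scaling, left-out replicates and a block were not made, and the precision per gene rests on the deposited standard errors, whose median was 0.263. Python 3.11.15, pandas 2.3.3, scipy 1.17.1 and matplotlib 3.10.9 were used.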

Additional observations from a re-analysis of the deposited data

Results flagged for a closer look

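The 24 skeletal muscle genes summed to 60956 normalized counts in knockout livers and 175 in wild-type livers at 8 weeks, and none of them is part of the calls, because the table gives them no p.

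The log2 ratio of knockout over wild type differed between the ages, by a Wald test over all genes, for 44 of the 142 described genes of the naming rule. Not all of the 142 were tested at both ages. Of all 14278 genes tested at both ages 1.58% differed. The rule chose genes by their 8-week calls, and the 8-week ratio is part of the difference, so the 2 shares cannot be compared. The values below are the 8-week minus the 28-week log2 ratio. Among genes of matrix and signalling it was 2.69 for Sparc, 4.27 for Eln, 1.47 for Postn, 3.98 for Adamts12 and 1.61 for Adamts2. It was 1.76 for Fstl1, 1.97 for Inhba, 3.80 for Ptk7, -1.87 for Acvr2b, -1.98 for Nrp2 and -3.14 for S1pr5. Rgs1 had -3.60, Rnd1 -2.07, Ppp1r3e -1.31, Ppp1r9a 1.97, Amot 1.65, Amotl2 -1.21, Cadm1 -1.23 and Mmd -1.05.

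Of transcription and RNA genes, Irx1 had -6.21, Dnmt3a 1.15, Zfp36l2 -1.11 and Igf2bp3 5.32. Of enzymes and carriers, Aldh3a2 had -2.23, Aldh18a1 4.12, Cyp2a5 -3.45, Ugt1a1 -1.14, Car14 1.57, Lpl 3.20, Fkbp11 2.59, Slc10a1 1.22 and Gria3 4.67. Of immune and secreted genes, Pigr had -2.08, Clec2d -0.97, Gbp2b -2.45, Serpinb1a -4.31, Wfdc2 -2.70 and Wfdc21 -1.55. The rest were Kif28 at -8.41, Evi2 at 9.24, Rplp2-ps1 at -4.01, Wdr89 at 4.18, Gm19619 at 1.79 and 4930452B06Rik at 4.48. Kif28 averaged under 1 normalized count in knockout livers and Evi2 under 1 in wild-type livers at 8 weeks, so their values depend on the fit and give no fold. The 8-week wild-type livers lacked Y-linked RNA, and sex-linked differences and age cannot be told apart in these values.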

How the results depend on the processing

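At an adjusted p under 0.01 the 8-week calls numbered 434, of which 218 were higher and 216 lower in knockout, and calls of at least 2-fold numbered 445, with 238 higher and 207 lower; both follow from the stricter rule. The calls of the difference between the ages numbered 109 at 0.01, with 59 higher and 50 lower at 8 weeks. Adjusting over every gene with a p gave 693 calls at 8 weeks, a mean of at least 50 normalized counts gave 742, centring on the median of all genes gave 760, and leaving out the genes of the sex-linked and sex-biased lists gave 723. Families with a call ranged between 59 and 69 over these alternatives. In the input reads at sites Aldh18a1 had a log2 ratio of -0.59, Suv39h2 of -0.14 and Wdr89 of -0.27, opposite to their gene counts, and the cause was not tested. No paired analysis was possible because values per library were not used here and the knockout and wild-type animals share no number; for the same reason left-out replicates, edgeR and TMM scaling were not run. Depth limits low genes, whose median standard error was 1.24 under a mean of 20 normalized counts.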

Other observations

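A list of 14 genes known from fetal liver was chosen after its values were seen, so its direction is fixed by the choice; 12 had counts and 4 of these were called. The 12 summed to 6404 normalized counts in knockout livers and 2290 in wild-type livers, and at 28 weeks to 1391 in knockout livers and 1412 in wild-type livers. H19 and Igf2bp3 had the largest ratios of the 4. The 4 were H19, an imprinted RNA, at a log2 ratio of 6.81 ± 1.61 (adjusted p = 0.00158) by the authors' deposited table, Igf2bp3, Gpc3 and Mest, an imprinted hydrolase gene, whose normalized counts were 200 in knockout livers and 90.5 in wild-type livers.

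On the X chromosome 17 of 481 tested genes were higher and 7 lower in knockout, or 4.99%, beside 4.98% of all genes. Among them were 3 genes of the Tceal group, relatives of a transcription elongation factor: in normalized counts, Tceal8 was at 4533 in knockout livers and 1686 in wild-type livers, Tceal9 at 3196 in knockout livers and 1493 in wild-type livers and Tceal5 at 51.7 in knockout livers and under 1 in wild-type livers. Of the Armcx group, Armcx4 was at 984 in knockout livers and 273 in wild-type livers and Armcx3 at 1033 in knockout livers and 556 in wild-type livers.

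Alb, the gene for albumin, took 10.9% of the summed normalized counts in knockout livers and 7.52% in wild-type livers, and the 10 most abundant genes took 22.4% in knockout livers and 18.6% in wild-type livers.

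Of the genes called at both ages, 4 had opposite signs. Adprh, an ADP-ribosylarginine hydrolase gene, had a log2 ratio of 1.23 ± 0.25 at 8 weeks and -0.86 ± 0.21 at 28 weeks, Col4a1 had 1.80 ± 0.32 at 8 weeks and -0.74 ± 0.17 at 28 weeks, and Col4a2 had 1.91 ± 0.29 at 8 weeks and -0.85 ± 0.16 at 28 weeks, all by the authors' deposited tables. Irx1 was the other.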
